A study of Caenorhabditis elegans with 32 samples.

Results

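Of the 200551 windows of 500 bp that tile the nuclear genome of Caenorhabditis elegans (build ce10), 6250 held few uniquely mapped reads in the wild-type input DNA. These poorly covered windows were chosen by scaling the 3 WT inputs of the H3K27ac experiment to a common nuclear total and keeping windows with a mean of at least 10 scaled reads but under 50% of the median window (median 103 scaled reads, upper limit 51.7). They made up 3.12% of nuclear windows. The 189597 windows at or above the upper limit serve as the comparison and are called other windows, and 4704 windows fell below 10 scaled reads, 2373 of them with no WT input read at all. Members just inside the upper limit lay at 51.7 scaled reads, as did windows just outside it, and windows on either side of the lower limit lay at 10.0 and 9.99, so the limits cut a continuous range.

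The study asked how the H3K9 methyltransferase MET-2 represses transcription apart from its catalysis, and it measured H3K27ac and H3K9me2 by chromatin immunoprecipitation and sequencing in whole early embryos, before the bean stage. H3K27ac was measured in 4 groups of 3 immunoprecipitates (IPs) and 3 inputs each: N2 (Bristol) at 20 °C (WT), N2 exposed to 37 °C (HS), met-2(n4256) III, a deletion (met-2Δ), and met-2(gw1660) III, a catalytically deficient point mutant made by genome editing (met-2-CD), the last pair grown at 20 °C. H3K9me2 was measured in N2 at 20 °C and after 37 °C only, with 2 IPs and 2 inputs each, so nothing here shows H3K9me2 in the mutants. The labels give 1 h at 37 °C for every heated sample. For the H3K27ac samples a shorter exposure is named in one place of the published text and the longer one in another. Each mutant is represented by a single strain and each library by embryos of a synchronized culture. The labels call the replicates biological, although one protocol counts 2 and another 3, so the p-values measure the spread between these libraries.

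Short reads that match several places in a genome cannot be assigned, so tables of uniquely mapped reads are sparse over repeats such as transposon copies and satellite arrays. In worms these elements lie mostly on the chromosome arms, and many carry H3K9me2, a mark of silent chromatin that in embryos is laid down largely by the SETDB1-like enzyme MET-2. H3K27ac is in contrast a mark of active promoters and enhancers. Whether the chosen windows are repeats was not tested, because no genome sequence or gene annotation of ce10 was used here, and for the same reason no sequence or gene is given. What the counts do show is low coverage. In the 9 H3K27ac-experiment inputs that the rule did not use, the mean read number per poorly covered window was between 0.268 and 0.315 of that per other window, beside 0.303 to 0.315 in the 3 that it used, and between 92.2% and 93.8% of members remained under the upper limit in the input mean of each of the other 3 groups.

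The H3K9me2 inputs did not behave alike, and every ratio to them rests on this. The input of 20 °C replicate 2 had 0.335 of the reads per poorly covered window that it had per other window. The input of 20 °C replicate 1 had 1.25, that of 37 °C replicate 1 had 0.995, and that of 37 °C replicate 2 had 1.67. Thus 3 of the 4 H3K9me2 inputs showed no deficit of mean reads in these windows, while all 12 H3K27ac-experiment inputs and the remaining H3K9me2 input did. The median member still lay below the median other window in those 3, at 0.643, 0.548 and 0.833 of it, against 0.315 in 20 °C replicate 2. These 3 libraries were shallow, with 6671338, 13775558 and 9471500 nuclear reads against 85333594 for 20 °C replicate 2, and mitochondrial reads took 32.8%, 32.0% and 45.0% of them against 4.44%. Their reads were more uneven, and the top 1% of members held between 19.7% and 24.3% of all member reads, beside 3.39% in 20 °C replicate 2 and at most 2.54% in any H3K27ac-experiment input. The same members were high in the 3 libraries, 669 of them (10.7%, against 1.43% of other windows) reaching at least 2 times the median of other windows in all 3 at once, and only 5 of those did so in 20 °C replicate 2. Across members the 3 libraries ranked windows with Spearman's rho between 0.876 and 0.910, a description over windows of shared libraries. The difference was not limited to those members: without the windows high in all 3, the remaining 5581 members stood at 0.686, 0.585 and 0.933 of other windows, against 0.317 in 20 °C replicate 2. The part of the mitochondrial share or depth in this was not tested.

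**Figure D1:**
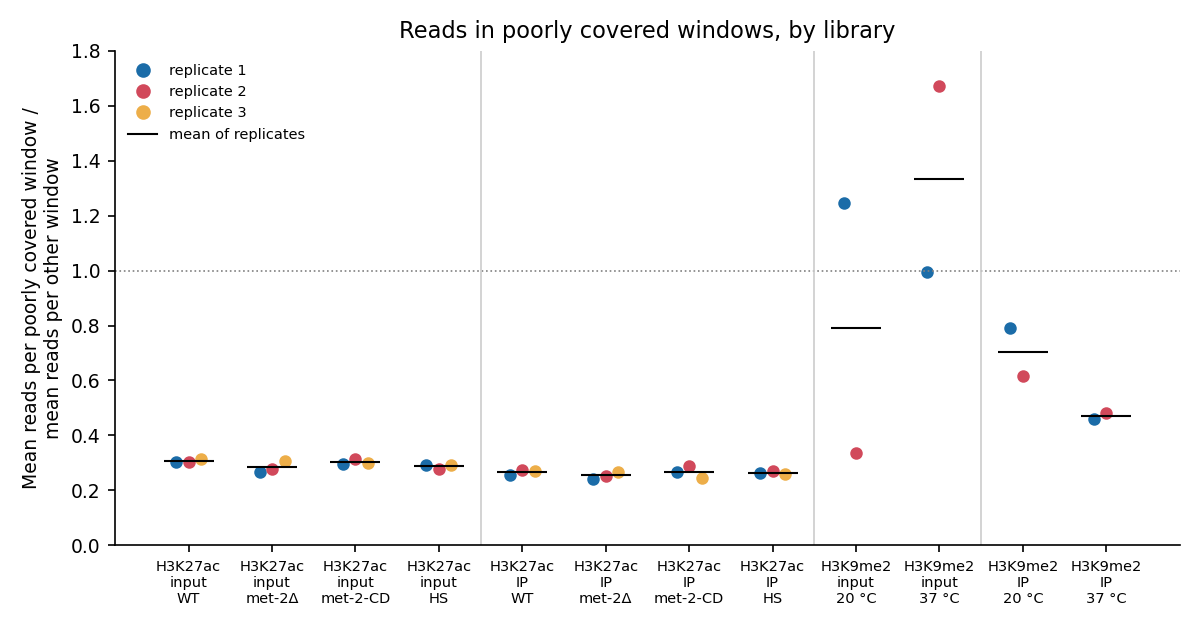
Mean reads per poorly covered window divided by mean reads per other window, for each of the 32 libraries (points, coloured by replicate number) with the mean of replicates (line). The 24 H3K27ac-experiment libraries lie between 0.241 and 0.315, 3 of the 4 H3K9me2 inputs lie at 0.995 or above, and the H3K9me2 IPs lie between 0.461 and 0.793.

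Poorly covered windows occurred on all 6 chromosomes and mostly toward the ends. They made up 3.84% of the windows of chromosome IV, 3.31% of I, 3.30% of V, 2.96% of III, 2.90% of II and 2.33% of X. When each chromosome was cut into 3 equal parts, the outer parts held a larger share than the middle part on every chromosome, from 4.21% against 1.52% on I to 4.25% against 3.03% on IV. Over all chromosomes 79.5% of members lay in the outer parts, which hold 66.7% of windows. On X the shares were 2.90% and 1.19%. They formed 4092 separate runs. Single windows held 44.6% of members, so most members adjoined another, and 444 runs of at least 3 windows held 27.9%. Of all members, 29.7% bordered a window with under 10 scaled reads, compared with 0.316% of other windows.

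The longest run was 14 windows on chromosome IV (11190296 to 11197295), followed by 11 windows on II (13041458 to 13046957) and 10 on V (8574939 to 8579938). Along the run on IV the H3K9me2 IPs averaged 27.4 and 31.6 scaled reads per window at 20 °C and 32.2 and 34.0 at 37 °C, none above the highest of its HS inputs at 35.3. The run on II differed between the 20 °C libraries, with 75.2 scaled reads in replicate 1 and 37.2 in replicate 2, beside HS inputs of 25.4, 22.1 and 23.9 and 37 °C IPs of 28.8 and 33.3. On V the 20 °C IPs stood at 19.9 and 47.2 and the 37 °C IPs at 37.0 and 44, with HS inputs between 26.3 and 29.3. Long runs of poor coverage therefore did not share 1 level of H3K9me2. For H3K27ac the run on II had 30.2 to 33.4 scaled reads in the 3 HS IPs, above the 17.8 to 24 of the 3 WT IPs, and on IV and V the HS and WT libraries overlapped.

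Summed H3K9me2 reads in poorly covered windows were high relative to inputs with a low mean there, and low relative to the 3 inputs without a low mean. Enrichment was taken as the log2 ratio of the share of nuclear IP reads to the share of nuclear input reads, in members minus in other windows. Over the input of the same replicate number, it was -0.65 and 0.88 in the 20 °C libraries and -1.11 and -1.8 in the 37 °C libraries. The replicates of 20 °C had opposite signs, and the mean over the 4 libraries was -0.67 ± 1.14 (SD, n = 4; exact sign-flip permutation test, two-sided, p = 0.375, where the smallest possible p is 0.125). Over the 3 HS inputs of the H3K27ac experiment, a choice made after these values were seen, the same 4 IPs stood at 1.46, 1.1, 0.68 and 0.74, all above 0, with a mean of 1.00 ± 0.36 (SD, n = 4; exact sign-flip permutation test, p = 0.125, the smallest possible). Over the 1 H3K9me2 input with a low mean in these windows, 20 °C replicate 2, they stood at 1.24, 0.88, 0.46 and 0.52. With 1 common input the order of the IPs is fixed by the IPs alone, the 20 °C libraries above the 37 °C libraries. The 4 values then share that input, so their signs are not independent. The sign changed with the input that was used.

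**Figure D2:**
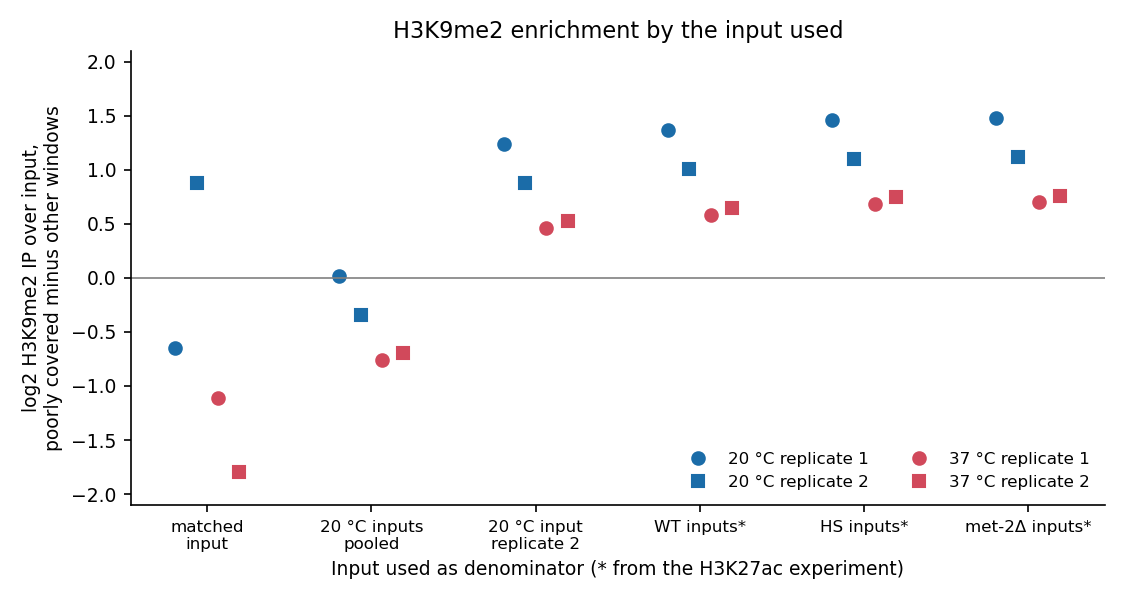
log2 H3K9me2 IP over input in poorly covered windows minus that in other windows (y axis) for the 4 IP libraries, by the input used as denominator (x axis). All 4 libraries lie above 0 with the 20 °C input replicate 2 or with inputs of the H3K27ac experiment, and 1 of 4 with matched inputs. The values over the WT inputs are a description, since those inputs chose the members. Apart from the matched inputs, the 4 libraries share their denominator, so their signs are not independent.

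The excess was not carried by the mean alone. Over the HS inputs, 39.6% and 30.3% of members reached a log2 ratio of at least 1 in the 20 °C libraries, against 14.6% and 5.89% of other windows. In the 37 °C libraries the shares were 19.8% and 22.7% of members, against 3.09% and 3.37%. The median member lay 1.60 and 0.78 above the median other window at 20 °C, and 0.47 and 0.54 above it at 37 °C. With the matched inputs the medians differed by 0.16 and 0.66 at 20 °C, both positive, and by -0.46 and -1.01 at 37 °C. When the 669 members and the other windows that were high in the 3 H3K9me2 inputs together were left out, the matched difference of summed reads was -0.01 and 0.70 at 20 °C and -0.52 and -1.13 at 37 °C, so at 37 °C it remained negative without them. Members also varied more than other windows, with an SD of 1.90 and 1.13 over windows in the 20 °C libraries against 1.83 and 0.72. A member's low count widens its ratio, and the median member had 48 raw reads in 20 °C IP replicate 1 and 75 in replicate 2.

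The ratio of summed H3K9me2 IP reads to summed HS input reads rose step by step as coverage fell, with no jump at the limit of the rule. Among members between the lower limit and 20% of the median WT input (1494 windows), the log2 ratio in the 4 libraries was 2.12 and 1.70 at 20 °C and 1.09 and 1.20 at 37 °C. Among those at 40 to 50% (1826 windows) it was 1.21, 0.89, 0.57 and 0.60. Windows just outside, at 50 to 60% (2406 windows), stood at 1.17, 0.84, 0.54 and 0.56. Windows at 90 to 110% of the median stood at -0.17, -0.10, -0.04 and -0.05. Poorly covered windows were therefore one end of a gradient in summed reads, and the windows between 50% and 80% of the median shared the raised ratio. Sums are raised by single high windows. In the sparsest member class the median window had 20.6 and 21.0 scaled IP reads at 20 °C and 18.2 and 19.2 at 37 °C. The IP means there were 59.3, 44.1, 29.1 and 31.3, so the typical window rose less than the sums. The H3K9me2 inputs rose over the HS inputs too. In the sparsest member class the HS inputs averaged 13.6 scaled reads. The replicate 1 inputs averaged 128 (20 °C) and 97.3 (37 °C), and the replicate 2 inputs 18.9 and 173. The IPs, between 29.1 and 59.3, lay above the 20 °C replicate 2 input and below the rest. Windows at 90 to 110% averaged 105 in the HS inputs and between 81.8 and 104 in the H3K9me2 inputs. The part of the inputs in the gradient was not tested. The WT inputs that order the windows and the HS inputs that divide here are different libraries of 1 experiment, and they share coverage.

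**Figure D3:**
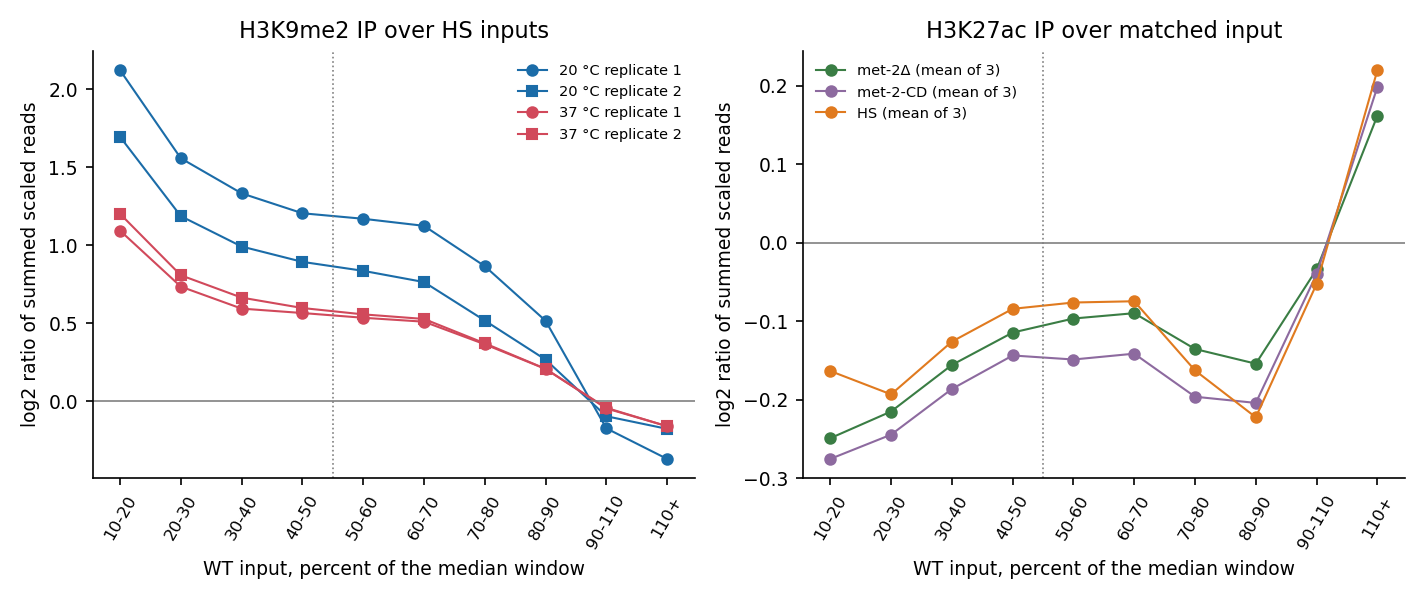
log2 ratio of summed scaled reads by WT input class (x axis, percent of the median window; the dotted line is the upper limit of the rule, members to its left). Left, the 4 H3K9me2 IPs over the HS inputs fall from between 1.09 and 2.12 in the sparsest class to between -0.37 and -0.16 above 110%; right, H3K27ac over matched inputs (mean of 3 per group) is under 0 in every class up to 110% and above 0 beyond it.

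Place on the chromosome went with the size of the H3K9me2 difference over the 20 °C input replicate 2. Over the 20 °C input replicate 2, members minus other windows were 0.74 and 0.96 for the outer parts of the chromosomes (replicates 2 and 1), and 1.08 and 1.90 for the middle parts. On X the same differences were 1.15 and 1.8, compared with 0.83 and 1.14 on the autosomes. The comparison is with other windows of the same zone, which differ in H3K9me2 themselves, and zones of 1 library are not replicates. Single windows, pairs and longer runs were close together, at 1.07, 1.03 and 1.17 in 20 °C replicate 2 over the HS inputs and 1.40, 1.31 and 1.61 in replicate 1.

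Around the poorly covered windows, H3K9me2 reads were raised over those of distant windows at 20 °C. Relative to coverage in the 20 °C input replicate 2 they were raised at both temperatures. The other H3K9me2 inputs, including those at 37 °C, were not taken by distance. Other windows directly next to a member (6003 windows) had a median of 76.7 scaled reads in 20 °C replicate 1 and 91.8 in replicate 2, which is 1.83 and 1.12 times the median of windows at least 10000 bp away. Their coverage in the 20 °C input replicate 2 was 0.778 of the distant windows. At 37 °C the neighbours had 0.965 and 0.978 of the distant median, which is also above that input ratio of 0.778. At 2000 bp the ratios were 1.32 and 1.12 at 20 °C and 1.06 and 1.05 at 37 °C, with an input ratio of 0.952. H3K27ac showed no such rise: directly next to a member the 4 groups lay between 0.727 and 0.755 of the distant median, and at 2000 bp between 0.890 and 0.925, beside HS inputs of 0.754 and 0.949. These are medians over windows and were not tested.

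**Figure D4:**
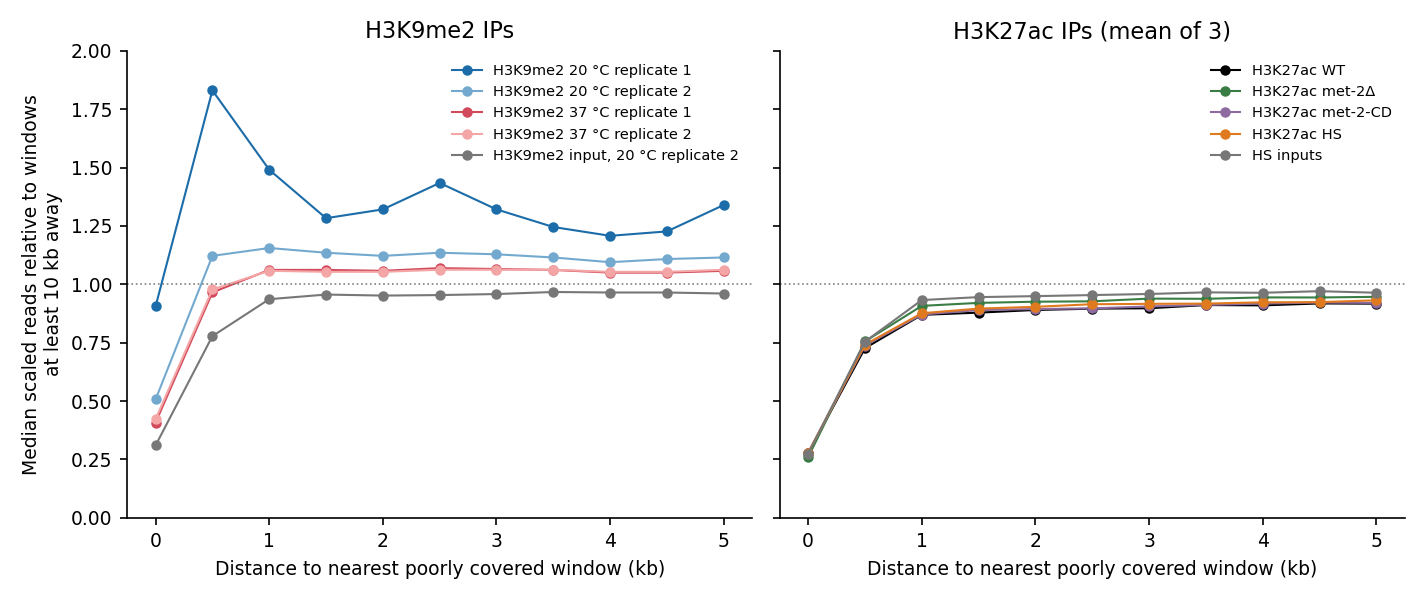
Median scaled reads by distance to the nearest poorly covered window (x axis, kb; 0 is the poorly covered windows themselves), relative to windows at least 10000 bp away. Left, H3K9me2 IPs and the 20 °C input replicate 2; right, the mean of 3 H3K27ac IPs per group and the HS inputs. At 0.5 kb the 20 °C H3K9me2 IPs reach 1.83 and 1.12. The 37 °C H3K9me2 IPs lie at 0.965 and 0.978, above the 0.778 of the 20 °C input replicate 2. The H3K27ac IPs and the HS inputs stay under 1.

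Mean H3K9me2 per poorly covered window was lower at 37 °C than at 20 °C in both libraries of each temperature. The mean was 81.0 and 63.5 scaled reads per member window at 20 °C and 47.7 and 49.8 at 37 °C, so the means did not overlap. The medians did, at 38.0 and 41.5 at 20 °C and 37.8 and 38.9 at 37 °C, so the typical member differed little. The 99th percentile of members was 586 and 370 at 20 °C and 205 and 211 at 37 °C. The 37 °C mean was 67.5% ± 11.7 of the 20 °C mean (SD from the replicates, n = 2 each; exact permutation test, two-sided, p = 0.333, the smallest that 2 against 2 allows). Other windows stood at 102 and 103 at 20 °C and 104 and 103 at 37 °C, which scaling to nuclear totals nearly fixes. The 20 °C libraries were far apart (SD 12.4) and the 37 °C libraries close together (SD 1.46). Lower values at 37 °C were not particular to members. Windows at 50 to 60% of the median WT input had means of 127 and 101 at 20 °C and 81.9 and 83.2 at 37 °C. Those at 60 to 70% had 151 and 118, and 98.6 and 99.8. The 99th percentile of other windows was 577 and 352 at 20 °C and 249 and 252 at 37 °C. Fewer cells carrying the mark and less of the mark per cell cannot be told apart in whole embryos.

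Tested window by window with edgeR, no window of any kind was called between 37 °C and 20 °C (adjusted p under 0.01; 0 of 6250 members, background 0% of 195847 windows tested). All members passed the filter of the test, since the filter was the lower limit of the rule. At an unadjusted p under 0.05 there were 437 members and 2799 windows in all. DESeq2 also called 0, with 1550 members at an unadjusted p under 0.05. Without 20 °C replicate 1, edgeR called 470 members, 467 of them lower at 37 °C (7.52% of members, beside 2.08% of all windows), and without 20 °C replicate 2 it called 3504, 2013 of them lower (56.1% beside 72.8%), so the call count rests on which 20 °C library is kept. The median fitted change was -0.18 for members and 0.43 for all windows on the log2 scale, and edgeR's TMM normalization moved these medians to -0.60 and 0.09, and DESeq2 to -0.74 and -0.02. Leaving out a 20 °C library gave -0.17 for members and 0.12 for all windows without replicate 1, and -0.11 and 0.96 without replicate 2. Members were below all windows in each of these fits.

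Poorly covered windows lay in H3K9me2 domains more often than other windows. Stretches of 3 or more windows in a row whose log2 ratio over matched inputs, averaged over the 20 °C replicates, reached 1 were taken as domains. They held 640 members (10.2%) and 5.58% of other windows. With the HS inputs they held 1298 members (20.8%) and 5.34% of other windows, and with 20 °C replicate 2 over its own input alone 926 (14.8%) and 4.30%. The share of members exceeded that of other windows under each of these definitions, and it was not tested because windows are not replicates. H3K27ac-enriched windows (log2 ratio reaching 1 in 2 or more of the 3 pairs) were less frequent among members. They numbered 144 in WT (2.30%), 113 in met-2Δ (1.81%), 152 for met-2-CD (2.43%) and 339 in HS (5.42%), against 6.01%, 4.62%, 5.61% and 8.28% of other windows. The WT figure is a description, since the WT inputs chose the members.

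The members with the strongest H3K9me2 at 20 °C, ranked by the lower of the 2 replicates over matched inputs, lay on chromosomes I, III and IV. The window on I (11659452 to 11659951) had 642 and 257 scaled H3K9me2 reads at 20 °C, 119 and 121 at 37 °C, and HS inputs between 29.6 and 43.9. The window on III (1250098 to 1250597) had 1129 and 502 at 20 °C, 378 and 317 at 37 °C, and HS inputs between 42.3 and 50.9. The window on IV (16427774 to 16428273) had 445 and 222 at 20 °C, and 94.4 and 90.1 at 37 °C. None was called between 37 °C and 20 °C, and lower values at 37 °C are favoured by ranking on the 20 °C libraries (edgeR log2FC -1.90 ± 0.54, -1.23 ± 0.61 and -1.85 ± 0.46 SE, adjusted p = 0.746 for each). Their H3K27ac was at the level of input, with WT IPs of 33.9 to 57.1, 36.7 to 45.6 and 28.2 to 55.1 scaled reads beside WT inputs of 32.7 to 67.7, 35.3 to 55.5 and 27.8 to 70.5.

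H3K27ac in poorly covered windows followed the input closely in every group. The share of nuclear IP reads in members was 0.837, 0.891 and 0.880% in WT, 0.789, 0.829 and 0.875% in met-2Δ, 0.872, 0.943 and 0.797% for met-2-CD, and 0.855, 0.882 and 0.847% in HS. All groups overlapped. The difference from WT was -0.04 percentage points in met-2Δ (exact permutation test, two-sided, n = 3 each, p = 0.200), 0.002 in met-2-CD (exact permutation p = 1.00) and -0.008 in HS (exact permutation p = 0.900). Between met-2Δ and met-2-CD it was -0.04 (exact permutation p = 0.5). The smallest p that 3 against 3 allows is 0.100, and adjusted over the 4 contrasts no p was below 0.800. The libraries of met-2-CD lay further from each other than any group mean lay from another.

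Relative to matched inputs, H3K27ac was slightly lower in poorly covered windows than in other windows when reads were summed. Members minus other windows were -0.16 ± 0.03 in met-2Δ, -0.19 ± 0.09 in met-2-CD and -0.12 ± 0.07 in HS on the log2 scale (SD, n = 3 each). The difference was below 0 in 9 of 9 libraries (mean -0.16; exact sign-flip permutation test, two-sided, p = 0.0039, the smallest possible). In WT it was -0.21 ± 0.05, given as a description because the WT inputs chose the windows. The result did not extend to the typical window: taken as the median over windows with a pseudocount of 2, the difference over the 9 libraries was -0.02 (exact sign-flip permutation p = 0.582), and in HS it was 0.06. Nor was it particular to these windows, since windows at 80 to 90% of the median input stood at -0.15, -0.20 and -0.22 in met-2Δ, met-2-CD and HS, and members at 40 to 50% at -0.11, -0.14 and -0.08.

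A few members carried clear H3K27ac. The 3 with the highest lowest-of-3 WT IP lay on chromosome II (1054509 to 1055008), with 217, 283 and 205 scaled reads in WT, on IV (4389825 to 4390324), with 203, 210 and 202, and on II (11759463 to 11759962), with 259, 206 and 175. Their WT inputs were between 26.9 and 57.3. The first window also carried H3K9me2 in 20 °C replicate 1, with 446 scaled reads, and 126 in replicate 2. The last had 134, 148 and 100.2 scaled reads in met-2Δ, below every WT library but not called (edgeR log2FC -0.74 ± 0.17 SE, adjusted p = 0.0153), and 155, 147 and 266 for met-2-CD. It was the only one of the 3 called in any contrast, lower in HS with 149, 102 and 97.8 scaled reads (edgeR log2FC -0.87 ± 0.18 SE, adjusted p = 0.000127), a call that TMM normalization ended (adjusted p = 0.0107).

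In met-2Δ, edgeR called 17 poorly covered windows against WT at an adjusted p under 0.01, 8 higher and 9 lower. That is 0.272% of members, beside 0.186% of all windows tested. All windows tested were called higher in 0.157% and lower in 0.0291%, an excess of higher calls that the members did not show with all libraries kept. The split among members was unstable. Higher calls outnumbered lower ones without WT replicate 2 (7 and 2) and without met-2Δ replicate 1 (6 and 2), and in no other fit that left out 1 library. With TMM normalization the members called were 21, 8 higher and 13 lower, and all windows called split into 127 higher and 59 lower. The gains among members ranged from 0.94 to 2.37 and the losses from -0.72 to -2.33 on the log2 scale. In met-2-CD the calls were 4, 1 higher and 3 lower (0.064%, beside 0.0194% of all windows tested, 0.0138% higher and 0.00562% lower). Between met-2Δ and met-2-CD they were 5, 3 higher and 2 lower (0.08%, beside 0.0301%, 0.025% higher and 0.00511% lower). Over all windows that last contrast had 49 higher and 10 lower calls, or 31 and 12 with TMM. These contrasts share their WT or mutant libraries and are not independent. The counts rested on single libraries: leaving out each of the 12 in turn gave between 8 and 36 members for met-2Δ (8 without met-2Δ replicate 1, 9 without WT replicate 2, 11 without WT replicate 3, 36 without HS replicate 2), between 1 and 5 for met-2-CD (1 without its replicate 2, 2 without its replicate 3 or without WT replicate 2), and between 2 and 7 for the mutants against each other (2 without met-2Δ replicate 1 or met-2-CD replicate 3, 3 without met-2Δ replicate 3, met-2-CD replicate 1 or met-2-CD replicate 2). Of the windows called with all libraries, 3, 1 and 1 were called in every such fit.

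The gain of lowest p in met-2Δ was matched by the input DNA of the same strain. The window on chromosome II from 10123970 to 10124469 had 17.9, 12.5 and 17.8 scaled H3K27ac reads in WT and 86.1, 73.9 and 86.9 in met-2Δ (edgeR log2FC 2.34 ± 0.31 SE, adjusted p = 9.31e-09). Its inputs had 32.7, 36.2 and 25.2 in WT and 124, 116 and 130 in met-2Δ, a log2 difference of 1.91. In met-2-CD the IPs had 59.9, 72.6 and 40.2 (log2FC 1.82 ± 0.31 SE, adjusted p = 0.000403) and the inputs 56.8, 61.3 and 77.9. IP and input were both higher in the mutant strains than in WT and HS, which are both N2, with no overlap between libraries. The 4 N2 inputs of the H3K9me2 experiment, from 43.5 to 61.1, were above every N2 input of the H3K27ac experiment and overlapped those of met-2-CD. The window after the next one upstream, from 10122970 to 10123469, showed the same in met-2Δ, with IPs of 86.1, 86.3 and 97.5 against 18.8, 19.7 and 18.5 in WT and inputs of 109, 112 and 128 against 25.4, 32.3 and 33.8. The log2 ratio of mean IP to mean input in the first window was -0.89 in WT, -0.57 in met-2Δ and -0.18 for met-2-CD, under 0 in each.

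The loss of lowest p in met-2-CD was likewise shared by its input. The window on chromosome V from 5079954 to 5080453 had 29.2, 26.0 and 30.1 scaled H3K27ac reads in WT and 2.02, 0.955 and 2.92 in met-2-CD (edgeR log2FC -3.74 ± 0.51 SE, adjusted p = 1.65e-07). Its inputs had 29.0, 21.5 and 25.2 in WT and 4.06, 5.57 and 0.803 in met-2-CD. In met-2Δ the IPs had 17.8, 24 and 24.5, beside inputs of 29.8, 29.2 and 32.9. The N2 inputs of the H3K9me2 experiment were as low as those of met-2-CD, at 5.98 and 3.27 for 20 °C and 1.45 and 0 for 37 °C, so the sparse input was not limited to the mutant strain. On II, the window from 3226500 to 3226999 had less H3K27ac in met-2Δ than its met-2-CD counterpart (log2FC -2.33 ± 0.45 SE, adjusted p = 0.0024), with IPs of 8.33, 3.24 and 1.33 against 28.3, 26.7 and 13.9 and inputs of 7.63, 4.40 and 9.67 against 35.7, 33.4 and 39.4. In all, the mean input changed at least 2-fold in the direction of the call in 4 of the 17 members called in met-2Δ, in 3 of 4 in met-2-CD, and in 2 of 5 between the mutants. Among all members such a change of input in either direction was rare, with 85 windows (1.36%) for met-2Δ and 21 (0.336%) for met-2-CD. Among called other windows the mean input changed with the call in 15 of 348 for met-2Δ, 5 of 34 for met-2-CD and 16 of 54 between the mutants, and over all other windows a 2-fold change of input occurred in 0.0137%, 0.00264% and 0.01%. Calls with a changed input were therefore found in both kinds of window. The part of the input in the IP difference was not tested.

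Other called losses differed in what their inputs did. The window on chromosome I from 1693994 to 1694493 had 133, 156 and 127 scaled H3K27ac reads in WT and 52.7, 84.3 and 59.0 in met-2Δ (edgeR log2FC -1.08 ± 0.17 SE, adjusted p = 7.01e-06), with inputs of 39.9 to 51.2 in WT and 38.2 to 45.6 in met-2Δ. In met-2-CD it had 105, 127 and 109 (adjusted p = 1.00) and in HS 104, 149 and 110. Another window on I (1976493 to 1976992) had 57.4, 70.7 and 81.1 in WT and 14.4, 25.9 and 26.5 in met-2Δ (log2FC -1.66 ± 0.29 SE, adjusted p = 7.37e-05), and its inputs also fell, from 33.9 to 52.9 in WT to 11.8 to 30.9 in met-2Δ. On X, the window from 164237 to 164736 separated the mutants, met-2Δ being the lower, with 41.6, 47.3 and 57.1 against 83.4, 96.5 and 115 scaled reads (log2FC -1.02 ± 0.19 SE, adjusted p = 0.0012), and the WT libraries stood at 92.3, 121 and 71.8. On V, met-2-CD was below WT in the window from 6297949 to 6298448 (log2FC -2.96 ± 0.57 SE, adjusted p = 0.0034), but on few reads, with 36.7, 13.5 and 11.6 in WT against 5.38, 1.91 and 0 in met-2-CD.

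**Figure D5:**
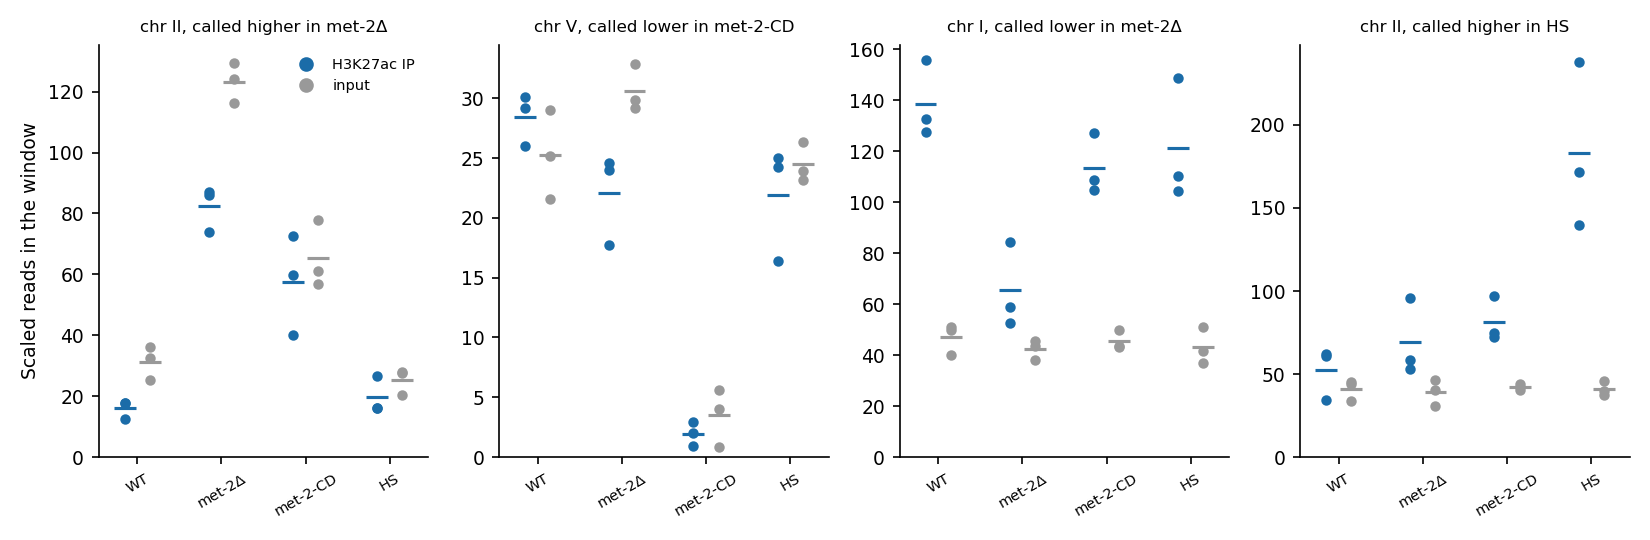
Scaled reads in 4 poorly covered windows, for H3K27ac IP (blue) and input (grey) in each of 3 libraries per group, with group means as lines; each panel has its own axis from 0. In the first panel IP and input are both higher in met-2Δ, in the second both are lower in met-2-CD, and in both panels to the right the IP differs while the inputs of all groups lie between 30.9 and 51.2.

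More poorly covered windows were called after heat than in either mutant. In HS against WT, edgeR called 234 members at an adjusted p under 0.01, 175 higher and 59 lower, or 3.74% of members. The background was higher, with 7.51% of all windows called (4.18% higher and 3.33% lower), so members were called at a smaller share than windows at large. Members have fewer reads, and the part of depth in the smaller share was not tested. Gains ranged from 0.62 to 1.99 and losses from -0.60 to -3.58 on the log2 scale. The median fitted change was -0.18 for members and for all windows alike, and with TMM normalization, which moved it to -0.04 in both, 332 members were called, 304 higher and 28 lower. Over all windows the split was 8183 higher and 6527 lower, or 10898 and 2827 with TMM. At an adjusted p under 0.05 the members called were 338 higher and 284 lower, while all windows turned to 14287 higher and 22209 lower, so the balance of gains and losses depends on scaling and threshold. Without HS replicate 2 the calls were 118, without WT replicate 3 119 and without WT replicate 2 145, beside 234 in all, and 57 members were called in every one of the 12 fits.

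None of the 175 members that gained H3K27ac in HS had a 2-fold higher input, a change that was rare in either direction among all members (0.848%). The window on chromosome II from 8459478 to 8459977 had 62.1, 34.3 and 61.0 scaled reads in WT and 172, 238 and 140 in HS (edgeR log2FC 1.78 ± 0.19 SE, adjusted p = 4.66e-14), with inputs of 33.9 to 45.0 and 37.5 to 45.7. On chromosome I, 1751994 to 1752493 had 73.4, 61.3 and 79.5 in WT and 184, 202 and 179 in HS (log2FC 1.39 ± 0.17 SE, adjusted p = 4.57e-11). Neither window was called in the mutants, where the 6 libraries lay between 53.3 and 97.1 in the first and between 58.3 and 95.6 in the second. Among the losses, a window on I (10304957 to 10305456) had 11.3, 9.35 and 8.49 scaled reads in WT and 2.09, 0 and 0 in HS (log2FC -3.58 ± 0.78 SE, adjusted p = 0.000394), on few reads in every library. In 1 of the 59 called losses the mean input fell at least 2-fold as well.

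Members that gained H3K27ac in HS carried H3K9me2 at 20 °C more often than members at large. A window was counted as H3K9me2-marked when its log2 ratio over the HS inputs was at least 1 in both 20 °C libraries, which held for 1455 members (23.3%) and 4.49% of other windows. Of the 175 gains, 75 were marked (42.9%), and of the 59 losses, 8 (13.6%). Other windows showed the same order, with 17.2% of 8008 gains and 1.18% of 6468 losses marked. A raised share was not particular to heat. In met-2Δ 3 of 8 gains (37.5%) and 4 of 9 losses (44.4%) among members were marked, and 39% of 300 gains and 8.33% of 48 losses among other windows. In met-2-CD 0 of the 4 members called were marked. The HS inputs enter the definition of the mark and not the test, which used IP reads only. Members with both H3K9me2 and H3K27ac enrichment numbered 27 in WT, 27 in met-2Δ, 31 for met-2-CD and 105 in HS, which is 1.86%, 1.86%, 2.13% and 7.22% of the marked members. Among marked other windows the shares were 3.91%, 3.89%, 3.99% and 9.53%. These counts are a description: the HS inputs are the denominator of the mark and of HS H3K27ac alike, and the WT inputs that chose the members are the denominator for WT, so the groups cannot be compared by them. H3K9me2 and H3K27ac were measured in separate libraries from whole embryos, so the 2 marks may lie in different cells.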

How the data were processed

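H3K27ac (24 libraries) and H3K9me2 (8 libraries) were measured in early embryos as paired-end reads of 50 bases. The authors aligned reads to ce10 and deposited raw counts of uniquely mapped reads per 500-bp window with QuasR, both mates counted, so reads are not independent molecules. Here counts were scaled by the nuclear total to the mean of the 3 WT inputs (19952883 reads), leaving out 28 mitochondrial windows. Nuclear depth was 16494440 to 63499122 reads in H3K27ac-experiment libraries and 6671338 to 85333594 in H3K9me2 libraries. Windows with at least 10 scaled WT input reads (195847) were tested on IP counts with edgeR 4.0.16 in R 4.3.3 (quasi-likelihood, one fit per mark, nuclear totals, Benjamini-Hochberg adjustment). Single values were compared by exact permutation (scipy 1.17.1), and log2 ratios of windows used a pseudocount of 2. Alternatives used TMM, DESeq2 1.42.0, other limits and other inputs. Windows named were the longest runs, the strongest for each mark (for H3K9me2 among members with at least 10 scaled reads in each 20 °C input), and the called windows of lowest p with non-overlapping groups. Members, lists and tests were chosen with earlier results of these data known. No 2 libraries had identical counts.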

Additional observations from a re-analysis of the deposited data

Results flagged for a closer look

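Windows under the lower limit entered no comparison, yet they held reads in the H3K9me2 experiment. They took 1.24% of nuclear reads in the input of 20 °C replicate 1, 0.901% in that of 37 °C replicate 1 and 1.70% in that of 37 °C replicate 2. In the H3K9me2 IPs they took 0.361% and 0.269% at 20 °C and 0.156% and 0.159% at 37 °C. The control libraries were lower, with 0.0844% in the input of 20 °C replicate 2 and between 0.0336% and 0.0503% in the 12 inputs of the H3K27ac experiment. These windows numbered 4704, and the reads were not spread over all of them. The median window had 0 scaled reads in the inputs of 20 °C replicate 1, 37 °C replicate 1 and 37 °C replicate 2, beside means of 52.5, 38.2 and 72.0. In the H3K9me2 IPs the medians lay between 0 and 0.553. The share of reads in these windows was not tested between groups.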

How the results depend on the processing

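Of 169 values recomputed under alternatives for 25 results, 113 were counted as the same. Tested results were judged by direction and side of the threshold alone, group means by a shift smaller than their SD, and counts by a change of at most 1.5-fold. Size could therefore differ: the 20 °C H3K9me2 mean of 0.11 (SD 1.09) counted as the same at 1.06 over the 20 °C input replicate 2. Only the causes built into an alternative are known, and others were not tested. H3K9me2 enrichment at 37 °C turned positive over the WT inputs (0.62), HS inputs (0.71), met-2Δ inputs (0.73) and 20 °C input replicate 2 (0.49), and so did the 4-library mean (0.90, 1.00, 1.01 and 0.78), while the 20 °C mean moved to 1.28 (HS inputs) and 1.30 (met-2Δ inputs). The values over the WT inputs are a description, since those inputs chose the members. Medians over windows at 37 °C were -0.74 and -0.64 (pseudocounts 2 and 8). H3K27ac enrichment as a median over windows was -0.0833 for WT, -0.0624 for met-2Δ, -0.0478 for met-2-CD, 0.0639 for HS and -0.0154 over 9 libraries with a pseudocount of 2, and -0.0343, -0.0176, 0.000488, 0.12 and 0.0341 with 8. Over the pooled 20 °C H3K9me2 inputs it was -1.55 in WT, -1.62 in met-2Δ, -1.55 in met-2-CD and -1.57 in HS, over replicate 2 of them -0.33, -0.40, -0.33 and -0.35, over the HS inputs -0.11 in WT, and with an upper limit of 0.4 times the median -0.19 in met-2Δ. Differences in the H3K27ac share, none past the threshold, turned to 0.0516 (HS to WT), 0.0293 (met-2Δ to WT) and 0.0175 (between the mutants) as IP over input shares, to -0.00243 for met-2-CD with a limit of 0.4, and to 0.00846 for HS with 0.6. Calls became 48 (met-2Δ) and 622 (HS) at an adjusted p under 0.05, and 2 (met-2-CD) with DESeq2. Members in H3K9me2 domains became 256 when every replicate had to pass, 255 at a log2 ratio of 1.5 and 1298 with HS inputs. H3K27ac-enriched members became 73, 47, 61 and 185 for the groups WT, met-2Δ, met-2-CD and HS when every replicate had to pass, 49, 27, 35 and 114 at 1.5, and 89 in WT and 74 in met-2Δ with a limit of 0.4. The input share of members, 0.952%, became 0.538% and 1.64% with limits of 0.4 and 0.6 and 0.858% with a lower limit of 20.

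Leaving out 1 library at a time gave H3K9me2 enrichment of -0.65 to 0.88 at 20 °C, -1.80 to -1.11 at 37 °C and -1.19 to -0.29 over 4 libraries, a 37 °C level of -0.73 to -0.38 (log2), and between 0 and 3504 calls. H3K27ac enrichment ranged from -0.23 to -0.19 in WT, -0.17 to -0.14 in met-2Δ, -0.22 to -0.14 in met-2-CD, -0.17 to -0.10 in HS and -0.17 to -0.14 over 9 libraries. Share differences ranged from -0.0603 to -0.0176 (met-2Δ), -0.0344 to 0.0385 (met-2-CD), -0.0242 to 0.00287 (HS) and -0.077 to -0.00406 (met-2Δ against met-2-CD), and calls from 8 to 36, 1 to 5, 118 to 276 and 2 to 7. A group left with 1 library is assumed to vary like the others.

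Replicate numbers did not pair the libraries: same-numbered H3K27ac libraries had deviations correlated between -0.431 and 0.251. With a replicate block the calls were 21 (met-2Δ), 4 (met-2-CD), 205 (HS), 6 (met-2Δ against met-2-CD) and 0 (37 °C), the 37 °C level -0.56, and the share differences -0.0385, 0.00171, -0.00792 and -0.0402. Of the members called without the block 17, 4, 203 and 5 were called with it.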
